A study of Mus musculus with 25 samples.

Results

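The genes described here are the clustered histone genes of the mouse, chosen as the protein-coding genes of the mm9 annotation (GENCODE vM1) whose symbol is Hist followed by a digit. There were 67 of them among 22208 protein-coding genes on the autosomes and X, namely 6 for the linker histone H1 and 19 for H2A, 18 for H2B, 11 for H3 and 13 for H4 of the nucleosome core. Binding of GATA1 and TAL1 had been mapped by ChIP-exo in mouse erythroid cells of strain 129, a form of chromatin immunoprecipitation in which an exonuclease trims the DNA up to the cross-linked protein. G1E cells lack GATA1, and G1E-ER4 cells, which derive from them, carry GATA1 in a form switched on by beta-estradiol (10 nM by the sample labels; the methods of the study give another dose). The GATA1 libraries numbered 3 each from G1E-ER4 cells at 0, 3 and 24 h and 1 from G1E cells, which the labels but not the study's text tie to the GATA1 lists, and the TAL1 libraries numbered 4 from G1E cells and 5, 3 and 3 from G1E-ER4 cells at 0, 3 and 24 h. Each factor had 3 lists of single positions: peak pairs (46666 for GATA1, 63546 for TAL1), in which opposite strands mark both borders of a contact, MultiGPS locations (12781 and 17639), which come from a model of the read distribution, and final locations (10290 and 15209), which are MultiGPS locations near a peak pair. The lists pool replicates and times and hold no score, so no location can be tied to a time or a cell line, no replicate error can be given, the read counts that the study gives by library were not used, and no test across samples was possible.

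Most histone protein is made in S phase, when newly copied DNA must be packed, from short genes without introns whose messages end in a stem-loop in place of a poly(A) tail. These genes lie in a few clusters, often as head-to-head pairs of an H2A and an H2B gene that share a promoter. GATA1, a zinc finger protein, binds the GATA site WGATAA, where W is A or T, and TAL1, a basic helix-loop-helix protein, binds the E-box with its E2A partner and is also brought to DNA by complexes that hold GATA1. Both are required for the making of red blood cells, in which the nucleus condenses after a final series of rapid divisions.

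The sequences below show the kinds of location found at the histone genes: with a GATA site and the other factor, with both kinds of site, and with neither. Each is the mm9 plus strand, 5′ to 3′, 30 bases on either side of the called position, and capitals mark a GATA site, AGATAA or its twin with T in the first place, or the E-box CAGATG or its twin CAGCTG, on either strand.
GATA1 beside Hist1h2bl (chr13:21803701-21803761): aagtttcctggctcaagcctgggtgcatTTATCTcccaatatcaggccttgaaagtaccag
TAL1 beside Hist1h4k (chr13:21837101-21837161): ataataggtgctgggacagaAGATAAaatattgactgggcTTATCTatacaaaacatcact
GATA1 beside Hist1h1b (chr13:21871574-21871634): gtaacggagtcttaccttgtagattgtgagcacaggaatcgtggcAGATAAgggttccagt
TAL1 upstream of Hist1h3e (chr13:23655007-23655067): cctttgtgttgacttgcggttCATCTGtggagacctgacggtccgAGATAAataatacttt
GATA1 in the Hist1h2be intron (chr13:23683953-23684013): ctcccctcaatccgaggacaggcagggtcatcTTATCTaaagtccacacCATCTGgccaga
GATA1 between Hist1h2be and Hist1h1e (chr13:23713324-23713384): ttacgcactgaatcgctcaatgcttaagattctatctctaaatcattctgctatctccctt
GATA1 between Hist1h4a and Hist1h3a (chr13:23853427-23853487): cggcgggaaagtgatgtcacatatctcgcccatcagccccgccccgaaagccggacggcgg
GATA1 between Hist2h3c1 and Hist2h4 (chr3:96058749-96058809): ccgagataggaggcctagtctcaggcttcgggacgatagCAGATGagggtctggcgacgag
The Hist1h2bl and Hist1h1b windows hold 1 GATA site and the Hist1h4k window holds 2, the Hist1h3e and Hist1h2be windows hold a GATA site and an E-box, and the Hist2h3c1 one holds an E-box without a GATA site. The locations between Hist1h2be and Hist1h1e and between Hist1h4a and Hist1h3a hold none of these strings.

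A GATA1 final location lay in or within 10 kb of 37 of the 67 histone genes, or 55.2% (95% exact binomial interval, 42.6 to 67.4%). TAL1 had one near 19 of them, or 28.4% (18 to 40.7%), and each of those 19 also had a GATA1 location within 10 kb, so that 18 genes had GATA1 alone and 0 had TAL1 alone. The GATA1 share was set beside 23.9% of all protein-coding genes, 7.68% of the 3241 genes of at most 2 kb, which are as short as most histone genes, and 11.6% of the 2022 short genes left when olfactory, vomeronasal, taste and trace amine receptors were taken out. For TAL1 the same backgrounds were 21.3%, 6.26% and 9.25%. The lower bound of the GATA1 interval lay above all 3 backgrounds, whereas the TAL1 interval took in the share of all genes and lay above both shares of short genes. The intervals cover counting error only and treat genes as independent, although neighbors share locations: only 16 different GATA1 and 14 different TAL1 locations served these 37 and 19 genes.

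Close to the genes the picture was thinner. A GATA1 final location lay in or within 1 kb of 10 histone genes, or 14.9% (7.4 to 25.7%), against 16.3% of all genes, 2.01% of short genes and 2.97% of short genes without receptors. With a peak pair required within 20 bp of the location, the count was 5. That filter was not applied to the other genes, so this count cannot be set against the shares above. For TAL1 it was 3 histone genes, Hist1h3e, Hist1h2be and Hist1h1a, or 4.48% (0.933 to 12.5%), against 14.2%, 1.51% and 2.32%. Thus within 1 kb the GATA1 share was near that of all genes, and the TAL1 share lay below it. Long genes offer more room for a location, and 5 of the 10 genes with GATA1 within 1 kb are annotated as longer than 2 kb (Hist1h1d, Hist1h2be, Hist1h2ac, Hist1h2bc and Hist2h3c1). Among the 58 histone genes of at most 2 kb, 5 or 8.62% had GATA1 within 1 kb and 2 or 3.45% had TAL1, while within 10 kb the shares were 53.4% and 27.6%.

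The broader lists were counted likewise. GATA1 MultiGPS locations lay within 1 kb of 16 histone genes (23.9%), against 18.9% of all and 2.44% of short genes, and within 10 kb of 44 (65.7%), against 27.5% and 8.92%. GATA1 peak pairs lay within 1 kb of 25 (37.3%), against 35.1% and 5.18%, and within 10 kb of 49 (73.1%), against 48.4% and 18%. TAL1 MultiGPS locations lay within 1 kb of 7 (10.4%), against 16.6% and 1.82%, and within 10 kb of 26 (38.8%), against 24.8% and 7.5%. TAL1 peak pairs lay within 1 kb of 16 (23.9%), against 35.4% and 4.66%, and within 10 kb of 37 (55.2%), against 50.1% and 19.3%. In every list the share of histone genes was larger for GATA1 than for TAL1, and this difference was not tested. The TAL1 lists are the longer ones, but over all genes too the final and MultiGPS shares were larger for GATA1. Only the peak pair shares of all genes were larger for TAL1. Within 1 kb the GATA1 shares of histone genes were near those of all genes in each list. The intervals for MultiGPS locations (14.3 to 35.9%) and peak pairs (25.8 to 50%) took in the share of all genes, as did that for final locations. Among the 58 histone genes of at most 2 kb these shares were 17.2% for MultiGPS locations and 34.5% for peak pairs.

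**Figure D1:**
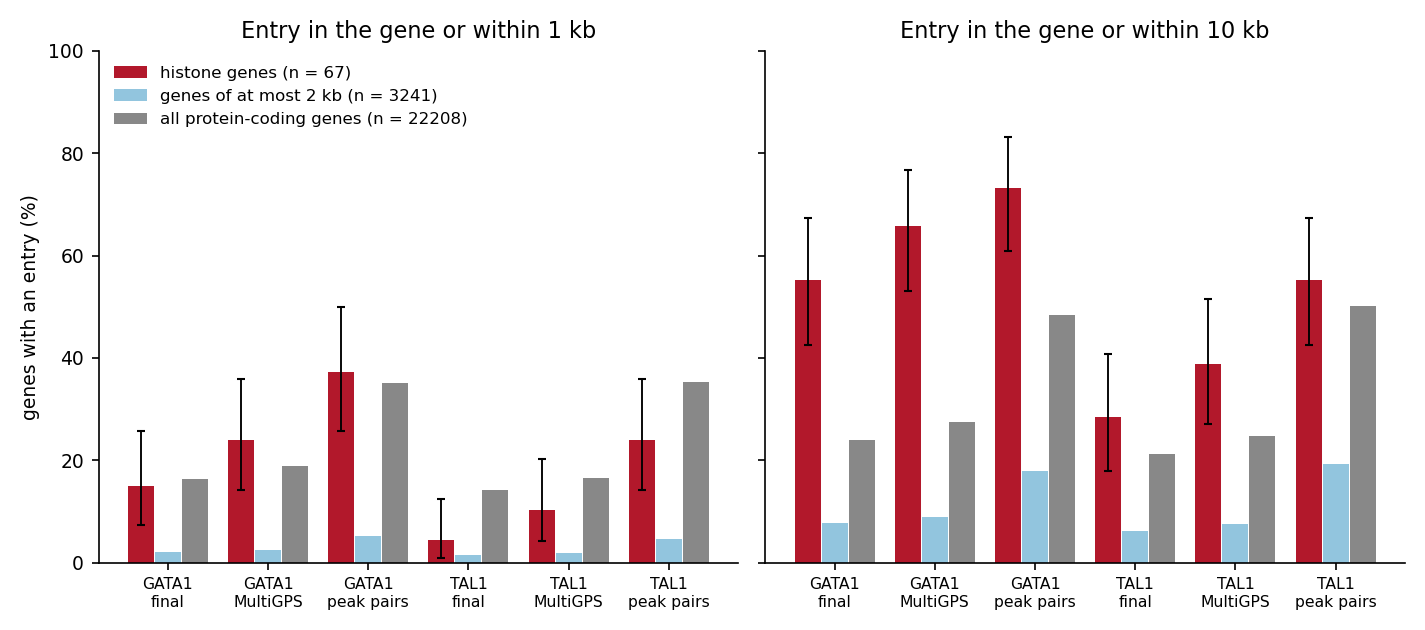
Share of genes (%) with an entry of each list in the gene or within 1 kb (left) or 10 kb (right), for the 67 histone genes (red, with 95% exact binomial intervals), the 3241 genes of at most 2 kb (blue) and all 22208 protein-coding genes (grey). At 10 kb the red GATA1 final bar stands at 55.2%, against 7.68% and 23.9%, and at 1 kb at 14.9%, against 2.01% and 16.3%.

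By distance the histone genes also sat close to GATA1. The median distance from a histone gene to its closest GATA1 final location was 8237 bp (range, 0 to 263479 bp), against 290112 bp for short genes and 75761 bp for all genes. For TAL1 the medians were 19606 bp for histone genes (0 to 297952 bp), 257907 bp for short genes and 84680 bp for all genes. With peak pairs the medians came to 2485 bp for GATA1 and 7986 bp for TAL1 at histone genes, against 11514 and 9968 bp over all genes and 59772 and 41455 bp for short genes. Neighboring histone genes often share their closest entry, so these distances are not independent.

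The 67 genes fell into 3 larger clusters and 3 small groups. The centromere-side part of the Hist1 cluster holds 23 genes in 328 kb (chr13:21807632-22135545), the telomere-side part holds 31 in 404 kb (chr13:23622919-24026720), and the Hist2 cluster holds 9 in 59.1 kb (chr3:96023839-96082924). The others are the Hist3 pair on chromosome 11, Hist1h2al by itself on chromosome 13 and Hist4h4 on chromosome 6. Inside the larger clusters lay 16 GATA1 final locations in 0.791 Mb, or 20.2 per Mb (95% exact Poisson interval, 11.6 to 32.9), against 3.9 per Mb over the genome. TAL1 had 12, or 15.2 per Mb (7.84 to 26.5), against 5.76 per Mb over the genome. The genome-wide figures include gene-poor DNA and were not matched for gene density. The Poisson intervals cover counting error only and treat locations as independent, although TAL1 locations often lie together. Of those within 10 kb of histone genes, the 14 for TAL1 merge to 7 when those under 500 bp apart count once, while the 16 for GATA1 stay 16.

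Densities were also taken by cluster, and no difference between clusters was tested. For GATA1 the telomere-side Hist1 part had 27.2 locations per Mb (13.6 to 48.7) and the centromere-side part 6.1 (0.739 to 22), against 3.95 per Mb over chromosome 13. Hist2 had 50.8 per Mb from 3 locations (10.5 to 148), against 4.03 per Mb over chromosome 3. TAL1 densities were 17.3 (6.97 to 35.7) and 6.1 (0.739 to 22) in the telomere-side and centromere-side parts, against 5.87 over chromosome 13, and 50.8 (10.5 to 148) in Hist2, against 4.87 over chromosome 3. The interval of the centromere-side part took in the density of the chromosome for both factors. For TAL1 this ended when the spans were extended by 10 kb on each side, since 4 TAL1 locations beside Hist1h2bl lie just outside the span: the centromere-side part then had 6 locations, or 17.2 per Mb (6.33 to 37.5), and the telomere-side part 16.5 (6.64 to 34). Those 4 lie under 500 bp apart, as do the TAL1 locations beside Hist1h4k and those of Hist2. The intervals treat each location as independent, so the TAL1 ones are too narrow, and the change rests on 1 group of neighboring locations. Not all locations inside the spans were near histone genes: 1 GATA1 location lay 1390 bp from a start of Hfe, the hemochromatosis gene of iron uptake, and the TAL1 ones at Slc17a1 and Slc17a4, genes of organic anion and phosphate transporters, were 46929 and 19994 bp from the closest histone gene start.

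**Figure D2:**
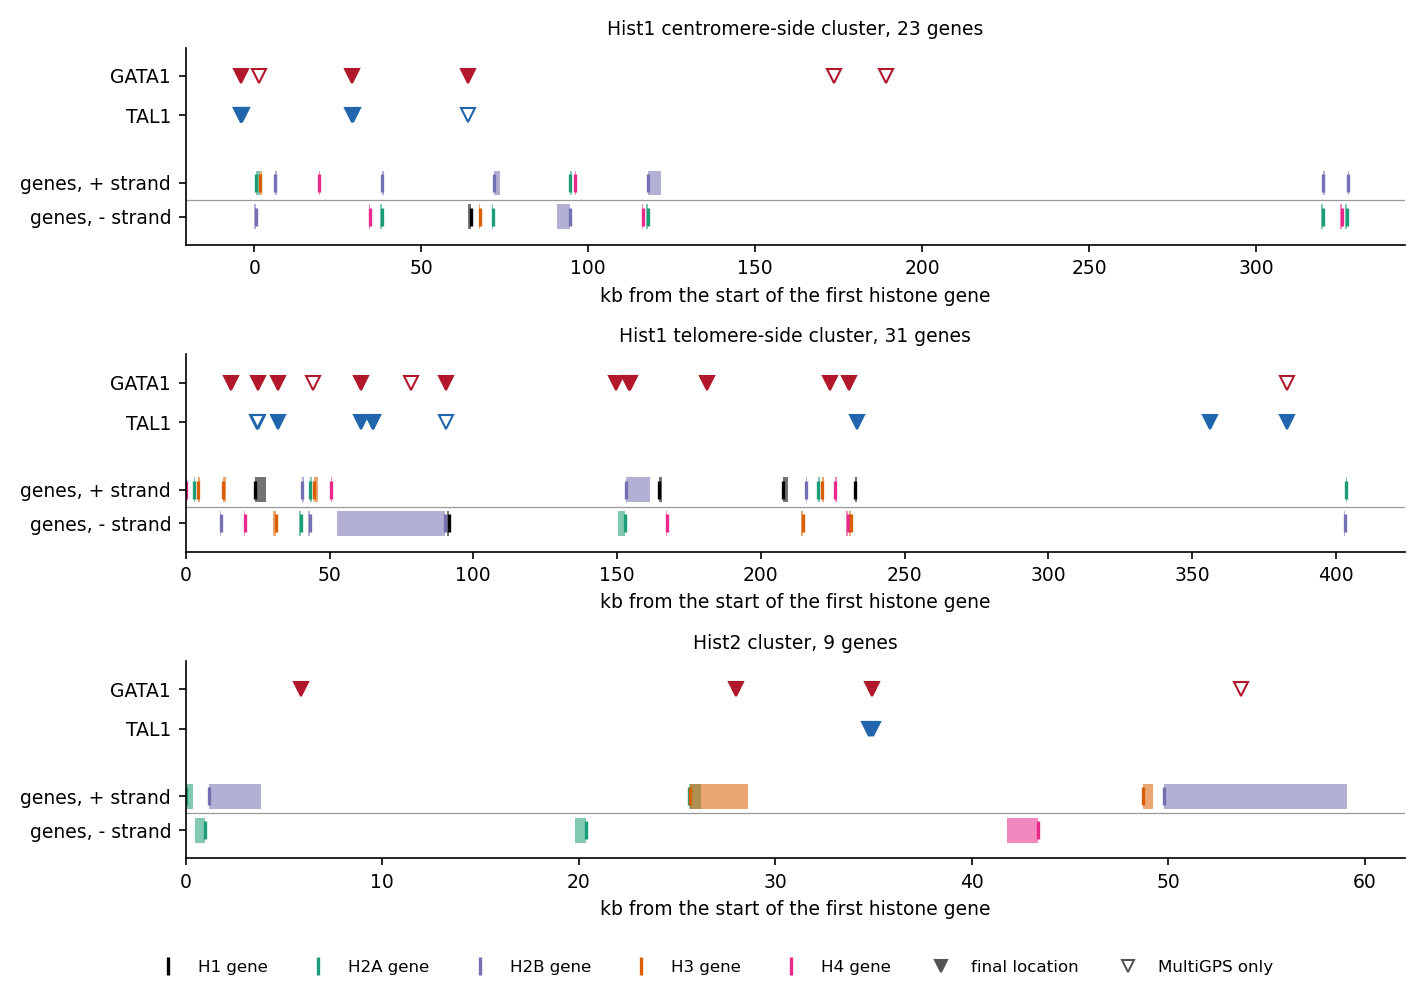
Maps of the 3 larger clusters in kb from the first base of the cluster, with histone genes by family and strand (ticks mark starts, pale bars the annotated bodies) and the GATA1 (red) and TAL1 (blue) locations above them, filled for final locations and open for MultiGPS only. The final locations of the centromere-side span all lie at its left end, those of the telomere-side span are spread over most of it, and in Hist2 the TAL1 locations sit beside 1 GATA1 location.

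In the centromere-side Hist1 part, 11 genes had a GATA1 final location within 10 kb, all from 3 locations. At position 21803731, 4281 bp downstream of the Hist1h2bl start and outside the annotated gene, a GATA1 location was accompanied by 4 TAL1 locations (21803718, 21803743, 21803785 and 21803823), the closest 12 bp away. The same 5 locations were within 10 kb of the H2A gene Hist1h2ai and the H3 gene Hist1h3h. At 21837027, 5347 bp from the start of the H4 gene Hist1h4k, GATA1 was again paired with TAL1 at 28 bp, and a further TAL1 location at 104 bp from GATA1 held 2 GATA sites. These served Hist1h4j, Hist1h4k, Hist1h2ak and Hist1h2bn. The third, at 21871604, lay 890 bp downstream of the start of Hist1h1b, the H1 gene of this part, and had a TAL1 peak pair at 28 bp but its closest TAL1 final location at 34473 bp. A GATA1 MultiGPS location without a peak pair, at 21808994, lay in the annotated UTR of Hist1h2ai, 503 bp upstream of Hist1h3h, with 2 GATA sites within 40 bp.

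The telomere-side Hist1 part had 10 GATA1 locations near 19 genes and 5 TAL1 locations near 9 genes, against 3 near 11 and 6 near 7 in the centromere-side part. Its member with the most entries, not divided by gene length, was Hist1h2be, an H2B gene annotated with the longest body here, 37383 bp. In or within 10 kb of it lay 2 GATA1 and 3 TAL1 final locations, 15 GATA1 and 13 TAL1 peak pairs. Of these, GATA1 at 23683983 and TAL1 at 23683960, 23 bp apart, and TAL1 at 23688032 and 23688123 lie in its intron, more than 10 kb from any histone gene start. The other GATA1 location, at 23713354, lies between Hist1h2be and the H1 gene Hist1h1e, 361 bp upstream of the Hist1h2be start, with 5 GATA1 peak pairs within 100 bp and a TAL1 MultiGPS location at 6 bp, whose closest TAL1 peak pair was 12260 bp away.

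Upstream of the H3 gene Hist1h3e, GATA1 at 23655086 (848 bp before the start) and TAL1 at 23655037 (799 bp) lay 49 bp apart, and only here did final locations of both factors lie within 1 kb upstream of a histone gene start. GATA1 alone was found in the H2B gene Hist1h2bc, with locations 852 and 1375 bp into its body (23776920 and 23777443), and beside its H2A neighbor Hist1h2ac, 3397 bp from the start and 916 bp past the annotated end (23772420). The closest TAL1 final locations were 72122 bp from Hist1h2bc and 80662 bp from Hist1h2ac. Farther on, GATA1 at 23847078 lay 1728 bp upstream of the H4 gene Hist1h4b, and GATA1 at 23853457 lay 358 bp upstream of the H4 gene Hist1h4a and 265 bp from the end of the H3 gene Hist1h3a. This last location had a peak pair 1 bp away. The TAL1 location nearest to it, 3022 bp off at 23856479, was 942 bp downstream of the start of the H1 gene Hist1h1a.

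In Hist2, 7 of 9 genes had a GATA1 location within 10 kb, from 3 locations. At 96058779 and 96058791, between the H3 gene Hist2h3c1 and the H4 gene Hist2h4, GATA1 and TAL1 lay 12 bp apart with 5 peak pairs of each factor within 100 bp, and TAL1 locations at 96058619 and 96058688 lay beside them. Hist2h4 had 9 GATA1 and 12 TAL1 peak pairs within 10 kb, and the H2A gene Hist2h2aa1 had 11 and 8. The remaining GATA1 locations were in the annotated UTR of Hist2h3c1, 1163 bp from its start (96051837), and 4674 bp downstream of the start of the H2B gene Hist2h2be (96029718), both without TAL1 under 100 bp.

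Peak pairs, which need no MultiGPS call, were spread over more genes. GATA1 pairs within 10 kb numbered 12 near 11 of the 23 centromere-side Hist1 genes, 38 near 27 of the 31 telomere-side genes and 15 near all 9 Hist2 genes. TAL1 pairs numbered 16 near 16, 22 near 13 and 13 near 8 genes of the same clusters, so the telomere-side part had more genes near GATA1 pairs than near TAL1 pairs and the centromere-side part had fewer. Within 1 kb the H1 gene Hist1h1e had 6 GATA1 pairs and 0 TAL1 pairs, the H2B gene Hist1h2bn had 4 GATA1 and 2 TAL1 pairs, and Hist1h3e had 2 and 5. Hist2h4 had 1 GATA1 and 3 TAL1 pairs within 1 kb, the closest TAL1 pair being in the gene. Farther along the centromere-side part, Hist1h2ah, Hist1h2bk and Hist1h4i each had 1 TAL1 pair within 1 kb and no GATA1 pair within 10 kb. Of the 67 GATA1 pairs near histone genes, 40.3% held the GATA site within 40 bp, against 48.2% of all GATA1 pairs, and of the 51 TAL1 pairs 33.3% did, against 27.4%. MultiGPS locations without a pair added genes too: at 23667318 GATA1 lay 314 bp upstream of the H3 gene Hist1h3d and 497 bp from the H2A gene Hist1h2ad, with its closest pair at 127 bp, and at 96077527 it lay in the intron of the H2B gene Hist2h2bb with a GATA site within 40 bp.

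At 10 histone genes no entry of any of the 6 lists lay within 10 kb. These were both Hist3 genes (Hist3h2ba and Hist3h2a), the 6 consecutive centromere-side genes Hist1h2bq, Hist1h2ao, Hist1h4m, Hist1h4n, Hist1h2ap and Hist1h2br, and the head-to-head pair Hist1h2ba and Hist1h2aa, which encode H2B and H2A of the testis. The testis H1 gene, Hist1h1t, had 1 TAL1 peak pair within 1 kb and no GATA1 entry within 10 kb. Hist1h2al had 1 GATA1 peak pair, 725 bp away, and Hist4h4 had 1 GATA1 peak pair at 415 bp and 1 TAL1 MultiGPS location at 858 bp. The names in this paragraph include genes picked out after their values were seen.

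By family, GATA1 final locations lay within 10 kb of 4 of 6 H1, 10 of 19 H2A, 9 of 18 H2B, 8 of 11 H3 and 6 of 13 H4 genes, and within 1 kb of 3, 1, 2, 3 and 1 of them. TAL1 final locations lay within 10 kb of 2 H1, 4 H2A, 4 H2B, 4 H3 and 5 H4 genes, and within 1 kb of 1 H1, 1 H2B and 1 H3 gene. Over all protein-coding genes the GATA1 shares were 23.9% within 10 kb and 16.3% within 1 kb, and the TAL1 shares 21.3% and 14.2%. For genes of at most 2 kb they were 7.68% and 2.01% for GATA1, and 6.26% and 1.51% for TAL1. Families were not tested against each other or against these shares. The 3 H1 genes with GATA1 within 1 kb were Hist1h1b, Hist1h1d and Hist1h1e, and at each the location lay just past the coding sequence, at 151, 272 and 356 bp from its end. Hist1h1a had TAL1 at 255 bp past its coding end. Of the 6 H1 genes, 4 had a TAL1 MultiGPS location within 1 kb, against 16.6% of all genes. At Hist1h1b and Hist1h1d such a location lay in the coding sequence, 2 and 53 bp before its end, without a TAL1 peak pair within 100 bp. The H1 genes were picked out for this after their values were seen.

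None of the final locations near histone genes lay in a coding sequence. Of the 16 GATA1 locations, 2 were in annotated UTRs, 3 in introns and 11 between genes, and of the 14 TAL1 locations, 3 were in introns and 11 between genes. Within 500 bp past the end of a histone coding sequence lay 5 of the GATA1 locations and 1 of the TAL1 locations.

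GATA1 locations near histone genes often lacked the exact site. The exact string, AGATAA or TGATAA on either strand, lay wholly within 40 bp of 6 of 16, or 37.5% (15.2 to 64.6%), against 66.5% (65.5 to 67.4%) of all GATA1 locations and 59.9% of those within 1 kb of any gene start. Windows moved by 1 kb held it at 12.5% near histone genes and at 8.33% of all. When only the core AGATA or TGATA was asked for, a choice made after seeing the data, 13 of 16 held it (81.2%), against 88.2% of all. Moved windows were not counted for this shorter string, so its background share is not known here. At TAL1 locations the exact site was present at 9 of 14, or 64.3% (35.1 to 87.2%), against 45.9% of all TAL1 locations, with moved windows at 32.1% and 8.24%. A TG with 7 or 8 bases between it and the site was found at 7 of 14 TAL1 locations (50%), against 25% of all, and at 3 of 16 GATA1 locations, against 21.9%. The E-box CAGATG or CAGCTG lay within 40 bp of 5 of 14 TAL1 locations, against 21.7%, and 3 of 16 GATA1 locations, against 17.2%. Several TAL1 locations share a site, since 14 locations merge to 7 when those under 500 bp apart count once.

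Cooccupied locations, under 40 bp apart, numbered 4 of 16 for GATA1, or 25% (7.27 to 52.4%), against 35.9% of all GATA1 locations. For TAL1 they were 5 of 14, or 35.7% (12.8 to 64.9%), against 27.5%. Both intervals took in the share of the whole list. Under 100 bp the counts were 5 of 16 (31.2%), against 47.9%, and 9 of 14 (64.3%), against 47.9%. The TAL1 locations are not independent, since 4 of these 9 lie beside the same GATA1 location near Hist1h2bl. These 5 GATA1 locations lay a median of 5347 bp from a histone gene start (848 to 10516 bp), with 1 within 2 kb. The 11 GATA1 locations without a TAL1 final location under 100 bp lay at a median of 1163 bp (358 to 4674 bp), with 8 within 2 kb, and 3 of these 11, like 3 of the 5, held a GATA site. The division rests on the final list: among the 8, the location at Hist1h1b had a TAL1 peak pair at 28 bp, and those at Hist1h1d and between Hist1h2be and Hist1h1e had TAL1 MultiGPS locations at 64 and 6 bp. It was made after seeing the values and was not tested.

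**Figure D3:**
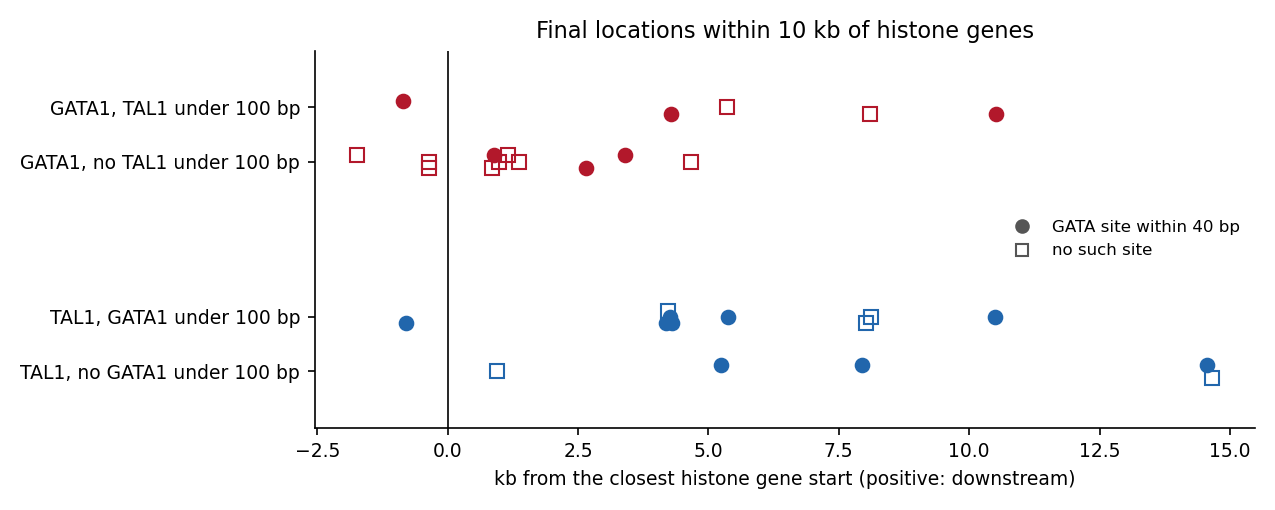
Final locations within 10 kb of histone genes, by distance (kb) from the closest histone gene start along its strand, for GATA1 (red) and TAL1 (blue), with and without a final location of the other factor under 100 bp; small vertical shifts only separate points. Filled circles hold AGATAA or TGATAA within 40 bp, open squares do not. Of the 5 GATA1 locations with a TAL1 final location, 1 sits within 2 kb of the start, and of the 11 without one 8 do, of which 3 have a TAL1 peak pair or MultiGPS location at 28, 64 and 6 bp.

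The promoters themselves were read from RefSeq (GRCm38.p6) as 250 bases before to 50 after each start, which gave 61 windows for 60 histone genes, of 66 matched by symbol, against 32851 windows in all. CCAAT, the string bound by NF-Y, was present on either strand in 52 windows, or 85.2%, against 37.4% of all windows. TATAAA was present on either strand in 35, or 57.4%, against 13.6%. AGATAA or TGATAA was found in 15, or 24.6%, against 18.6%, and CAGATG or CAGCTG in 10, or 16.4%, against 30.6%, both on either strand. Windows of head-to-head pairs can overlap, so the same string may be counted for both genes and may belong to the partner. These matches are descriptions of the letters in the windows, and the windows were not compared with the locations, whose build differs.

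The authors kept only reads that map to a single place, and histone genes resemble each other, so the share of 32-base strings that occur once in the mm9 chromosomes was counted. In the bodies of histone genes the median share was 47.9% (0 to 100%), with 35 of 67 genes under 50%, against a median of 82% for other short genes, of which 28.7% were under 50%. In the 1 kb on either side it was 88.3%, against 93.8%. The H1 bodies had a median of 93.9% (74.5 to 100%), above H4 (53.6%), H2B (45.6%), H3 (41.9%) and H2A (35.8%). GATA1 final locations lay within 1 kb of 3 of 6 H1, 1 of 13 H4, 2 of 18 H2B, 3 of 11 H3 and 1 of 19 H2A genes. At the H1 genes Hist1h1b and Hist1h1e the location lay outside the body, 148 and 270 bp from it, where the flanks were 100% unique. The 10 genes with a GATA1 final location within 1 kb had a median of 80.3% in the body and the 57 without one had 45.6%, while the flanks stood at 88.3% and 86.5%. Of these 10 genes, 5 are among those longer than 2 kb. Within 10 kb the body medians were 51.1% for the 37 genes with GATA1 and 39.7% for the 30 without, and for TAL1 they were 45.6% for the 19 with and 48.2% for the 48 without. Of the 10 genes without any entry, the 6 from Hist1h2bq to Hist1h2br had a unique share of at most 7.96% in the body and 7.1% in the flanks. The other 4 were largely unique, with 64.2% in the body and 100% in the flanks at Hist3h2ba, 96.6% and 90% at Hist3h2a, 59.1% and 96.5% at Hist1h2ba, and 89.7% and 89.3% at Hist1h2aa. Hist2h2aa1 and Hist2h2aa2, which are near copies, had 0% and 1.73% in the body and 42.2% and 43.5% in the flanks. The part of this in the location counts was not tested, and at genes with such low shares an absent entry cannot be told apart from reads that could not be placed. Around the final locations themselves (50 bp on either side) all strings were unique except at GATA1 23683983 (84.2%) and TAL1 21837131 (76.2%) and 23683960 (81.2%).

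**Figure D4:**
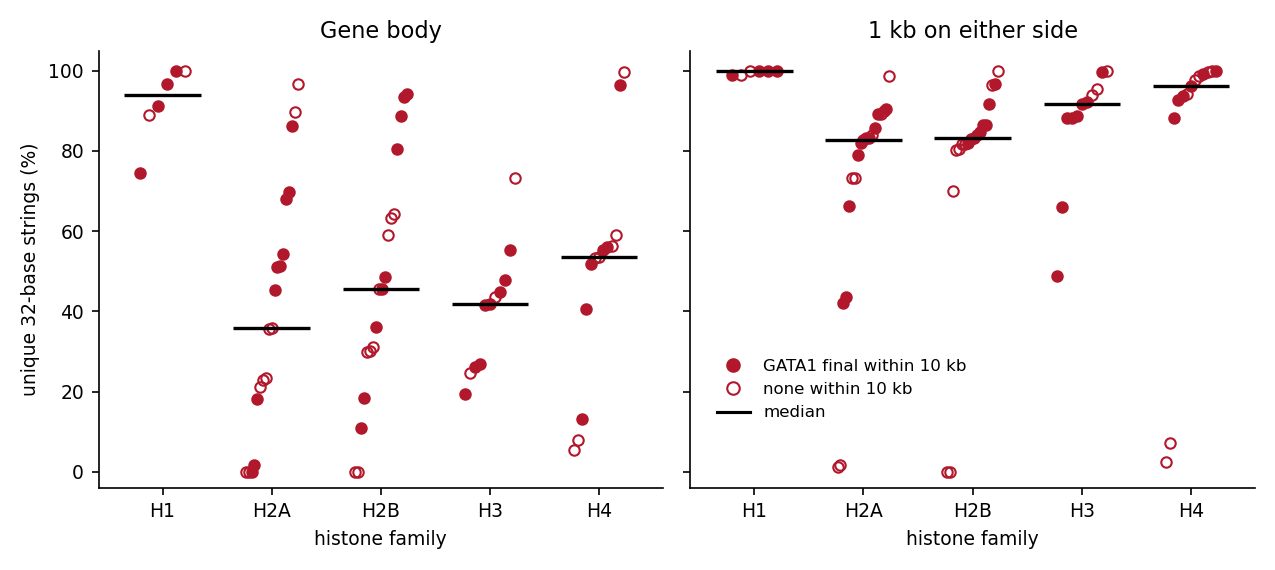
Share (%) of 32-base strings that occur once in the genome, for each of the 67 histone genes by family, in the gene body (left) and in 1 kb on either side (right); filled points have a GATA1 final location within 10 kb, open points have none, and lines are medians. H1 bodies have a median of 93.9% and H2A bodies one of 35.8%, and the 6 points at or under 7.1% on the right are all open.

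Genes related to histone supply were counted for context, from lists put together with earlier results of these data known, against the shares of all genes within 10 kb given above. Of 10 replacement histone genes outside the clusters, most of which are expressed through the cell cycle, 3 had GATA1 and 2 had TAL1 final locations within 10 kb. H2afx, whose product is phosphorylated at DNA breaks, had 2 GATA1 and 5 TAL1 locations, H3f3b (H3.3) had 1 and 2, and H2afv (an H2A.Z) had 1 and 0. Of 22 genes for the transcription and processing of histone messages, 7 (31.8%) had GATA1 and 8 (36.4%) had TAL1. The most were at Srrt (4 and 9), whose product acts with the cap-binding complex, Pou2f1 (5 and 3), the octamer factor OCT1, Ccne1 (1 and 5), cyclin E1, and Slbp (3 and 1), the stem-loop binding protein, whereas Npat, the coactivator of histone genes, Casp8ap2, the FLASH protein of the histone locus body, and Lsm11, of the particle that cuts histone messages, had none. Lsm10, of the same particle, had 1 and 1, and Hinfp, a transcription factor of H4 genes, had 1 and 2. The last 5 were picked out after their values were seen. Of 20 histone chaperone genes, 6 had GATA1 and 6 had TAL1, with Cabin1 (3 and 6), which acts in the HIRA complex, Supt16h (4 and 1), a subunit of FACT, Anp32e (2 and 1), which removes H2A.Z, and Ipo4 (1 and 1), an importin, holding the most. Of 22 neighbors of the clusters, 4 had GATA1 and 5 had TAL1, led by the butyrophilin gene Btn1a1 beside the telomere-side Hist1 part (5 and 5) and by Trim11 (2 and 1), Btn2a2 (1 and 1) and Hfe (1 and 0). The counts in this paragraph are not divided by gene length, which differs widely: 137525 bp for Pou2f1, 118248 bp for Cabin1, 11971 bp for Srrt and 1962 bp for Lsm10.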

How the data were processed

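Per the labels and the methods of the study, the authors called bases with CASAVA 1.7 and bcl2fastq 2.15, aligned reads to mm9 with Bowtie 1.00 or BWA 0.6.2 and 0.7.9a, kept uniquely mapped reads and merged replicates. GeneTrack peaks were paired across strands, MultiGPS gave locations, and calls over blacklisted regions or less than 2-fold over input (q under 0.05) were left out. The deposited lists were read as single mm9 positions. An entry belonged to a gene if it lay in the annotated body or within 1 or 10 kb of its ends. Cluster spans were divided at gaps over 1 Mb. The named genes were those with a location within 10 kb, ranked by their number, the gene closest to each location in the clusters, and up to 4 genes per list. The members and lists were chosen with earlier results of these data known. The background of short genes without receptors was added after seeing the data. Intervals are exact at 95%. Alternatives changed the distance, the gene ends, the biotype, the peak pair distance and the motif window. The counting was checked on simulated data. The work used scipy 1.17.1, pysam 0.24.0, numba 0.67.0, pandas 2.3.3, matplotlib 3.10.9 and numpy 2.4.6 under Python 3.11.15.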

Additional observations from a re-analysis of the deposited data

How the results depend on the processing

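Of 74 alternative settings over 24 counts, 62 stayed within 1.5 times the value given and 12 did not. With the spans extended by 10 kb, TAL1 locations in the 3 larger clusters came to 18.8 rather than 15.2 per Mb, within 1.5 times. In the centromere-side part alone, which is not among the 24 counts, they came to 17.2 rather than 6.1 per Mb, through the neighboring locations beside Hist1h2bl. With the distance at 5 kb in place of 10 kb, histone genes with a final location numbered 23 rather than 37 for GATA1 and 9 rather than 19 for TAL1, and those with a TAL1 MultiGPS location numbered 14 rather than 26. At 20 kb the TAL1 counts were 35 for final and 42 for MultiGPS locations. Shares of all and of short genes were not counted at 5 or 20 kb, so these counts do not show whether the difference from other genes changed. With a peak pair required within 20 bp, 5 rather than 10 genes kept a GATA1 location within 1 kb, without a background share under the same filter. TAL1 locations merged under 500 bp numbered 7 rather than 14. Cooccupied TAL1 locations numbered 9 under 100 bp and 10 against GATA1 peak pairs, rather than 5. Among settings added after seeing the data, genes of at most 2 kb with GATA1 within 1 kb numbered 5 rather than 10 for final locations. For MultiGPS locations they numbered 10 rather than 16. The shares fell too, from 14.9% of 67 genes to 8.62% of 58 for final and from 23.9% to 17.2% for MultiGPS locations. The core WGATA, also added then, was found at 13 rather than 6 GATA1 locations, by a shorter string. No replicate could be left out, since the lists pool them, and the lists hold no depth, so an absent entry means only that none was called.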
